A study of Mus musculus with 26 samples.

Results

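The Fabp4 and Fabp5 neighbourhood was taken as every peak centred within the 600 kb that start at position 9900000 of chromosome 3 in mm8, the build of the deposited lists. It held 237 of the 230453 peaks in the 15 lists, and these formed 47 of the 67815 sites of the series. All samples were cultures of 3T3-L1, a mouse fibroblast line differentiated into fat cells with dexamethasone, insulin and 3-isobutyl-1-methylxanthine. Once mature, the cells either stayed without drug or received rosiglitazone at 1 µM in DMSO, an antidiabetic compound that activates the nuclear receptor PPARγ. Chromatin immunoprecipitation with sequencing mapped MED1 in 2 untreated and 2 rosiglitazone libraries, CBP, p300 and NCOR in 1 library per condition, and CEBPa, CEBPb, ATF2, JUND and FOSL2 in 1 untreated library each. Whether the MED1 replicates were separate cultures is not stated in the labels, and the spread between them may be technical. The line is grown in culture, and the labels name no animal tissue.

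FABP4, also called aP2, and FABP5 are small cytosolic proteins that bind long-chain fatty acids and carry them through the watery cytoplasm. Fabp4 is among the most strongly expressed genes of fat cells and is a classical target of PPARγ, which binds DNA with RXR and exchanges corepressors for coactivators when an agonist such as rosiglitazone is bound. MED1 is the Mediator subunit that contacts ligand-bound nuclear receptors, CBP and p300 are related histone acetyltransferases, and NCOR is a corepressor that recruits histone deacetylase. CEBPa and CEBPb drive fat cell differentiation, JUND and FOSL2 are subunits of AP-1, and ATF2 is a leucine zipper factor that binds related elements. In the RefSeq gene order of GRCm38.p6, Fabp5 is followed by Pmp2, Fabp9, Fabp4, Fabp12 and Impa1, so several members of the family lie together. Gene positions in mm8 were not used here. The sites below are therefore named by their mm8 start on chromosome 3, none is assigned to a gene, and the name of the neighbourhood was not checked against gene models.

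The window was chosen by position with earlier results known, among them the high MED1 scores of the site at 10272671. MED1 scores, ranks, peak counts and shares of lists are therefore given as a description. The intervals and p-values on them are descriptive as well. At the low edge the first site inside, at 9902959, was in 2 lists, and the nearest site outside, at 9869224, was in 4 lists and lay 30.5 kb before the window. At the high edge the last site inside began at 10448549 and was in 2 lists. The next site of any list began at 12244982, 1745.0 kb beyond the window, so that no list held a peak in that interval.

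MED1 took a larger share of its peaks from the neighbourhood than the other factors did. The MED1 lists had 16 and 13 peaks there in untreated replicates 1 and 2, and 23 and 16 after rosiglitazone. These were 0.283% (95% Wilson interval 0.174 to 0.459) and 0.279% (0.163 to 0.477) of the untreated lists, and 0.285% (0.190 to 0.427) and 0.225% (0.139 to 0.366) of the rosiglitazone lists. The intervals cover counting error only and treat peaks as independent of each other. CBP had 15 peaks before and 13 after rosiglitazone, p300 had 17 in each condition, and NCOR had 23 and 26. Shares of the CBP, p300 and NCOR lists ran from 0.091% to 0.137%, with intervals that for CBP and p300 overlap those of MED1. CEBPa and CEBPb had 10 peaks each, ATF2 had 16, and JUND and FOSL2 had 11 each, which were 0.047% to 0.081% of their lists. The interval of CEBPa, 0.044 to 0.149, also overlaps that of MED1 in rosiglitazone replicate 2. The span of 600 kb is 0.375% of chromosome 3 up to its last peak. It held 4.40% to 6.64% of the MED1 peaks on that chromosome, against 0.88% of the JUND and of the FOSL2 peaks.

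**Figure D1:**
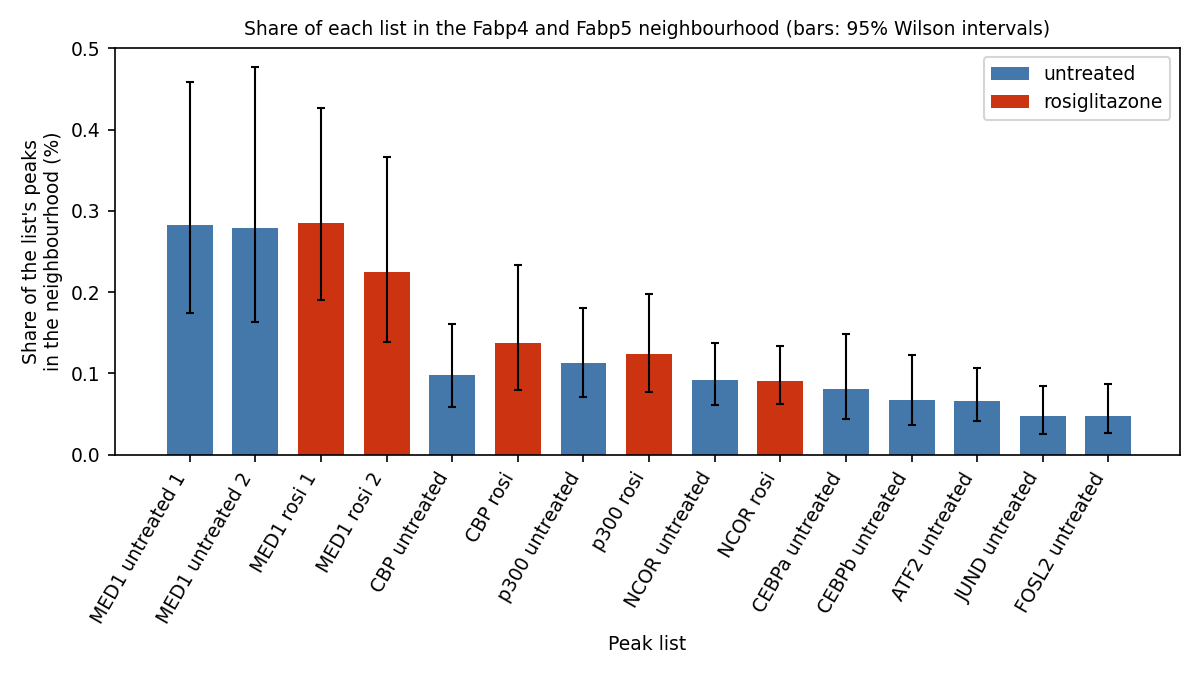
Share of each list's peaks that lie in the Fabp4 and Fabp5 neighbourhood, in percent (vertical axis), for the 15 lists (horizontal axis); error bars are 95% Wilson intervals, blue is untreated and red is rosiglitazone. The 4 MED1 lists lie between 0.225% and 0.285%, and the lists of the other factors between 0.047% and 0.137%.

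The number of MED1 peaks in the neighbourhood was 14.5 ± 2.12 (SD, n = 2) in untreated cells and 19.5 ± 4.95 (SD, n = 2) after rosiglitazone. The rosiglitazone list had more peaks in each replicate number, by 7 and by 3, but the groups met at 16 peaks. The mean difference of 5.0 gave p = 0.667 in a two-sided exact permutation test, in which 4 of the 6 possible splits of the lists gave a difference at least as large. With 2 lists against 2 the smallest possible p is 2 of 6 splits, so this design cannot pass a threshold of 0.05. Without rosiglitazone replicate 1 the difference was 1.5 and without rosiglitazone replicate 2 it was 8.5. As a share of the list's peaks the mean was lower after rosiglitazone, by -0.026 percentage points. The treated lists were longer over the whole genome. With the 4 lists cut to 4656 peaks each, the difference in number was 5.5, and in the upper 50% of each list it was also 5.5. Both of these had the smallest p that the permutation test can give with 2 lists against 2.

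The 47 sites fell into 6 groups when neighbours at most 30 kb apart were put together, a grouping chosen after the positions were seen. A lone site at 9902959 held NCOR in both conditions and nothing else. From 9992006 to 10005296 lay 6 sites, of which 4 held MED1 and 4 held NCOR, while none held CBP or p300. The third group, from 10058407 to 10068334, packed 6 sites into 9.9 kb, with NCOR and p300 at all 6 of them, and CBP and MED1 at 5 each. At 10107901 and 10108608 FOSL2 was listed, with CBP in untreated cells at the latter. The main group ran over 153.2 kb from 10156263 to 10309506 and held 26 sites, 16 of them with MED1. The last group, from 10383508 to 10448766, had 6 sites, with JUND or FOSL2 at 5 of them, NCOR and CBP at 0, and MED1 and p300 at 1 each. Of the 14 peaks in that last group 8 were of JUND or FOSL2, while the sites up to 10005296 on the low side held neither.

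**Figure D2:**
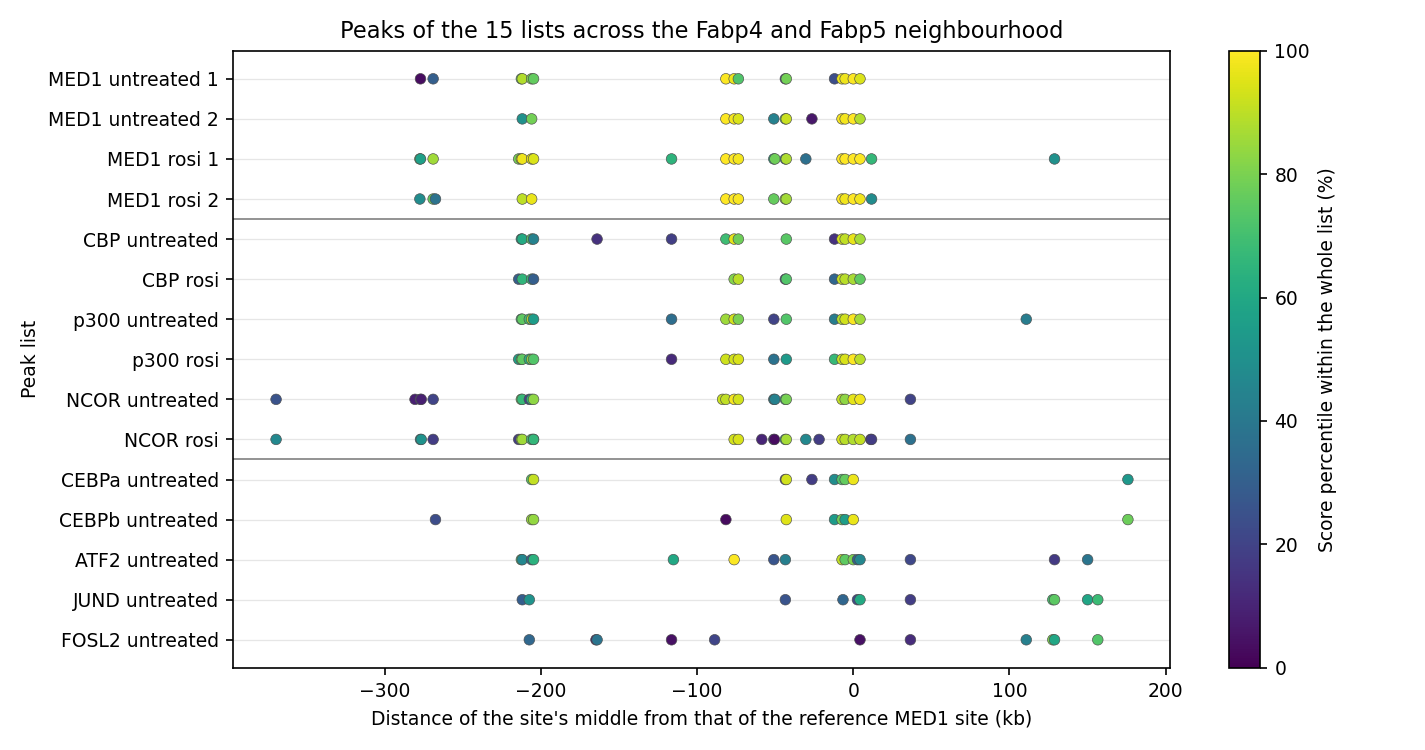
Peaks of the 15 lists (rows) by the distance of their site's middle from that of the site at 10272671 (horizontal axis, kb); colour gives the score percentile of the peak within its whole list, from 0 to 100%. The brightest MED1 points stand within 10 kb of that site and from -81.6 to -73.6 kb, and 8 of the 14 points more than 100 kb past it are JUND or FOSL2 peaks.

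Of the 47 sites 11 were held by at least 10 of the 15 lists, where 7.24% of all sites of the series were. A single list held 10 sites, against 34.7% of all sites. The largest number was 13 lists, reached at 5 sites, namely 10066669, 10265439, 10267462, 10272671 and 10276903. No site was in all 15 lists, because JUND and FOSL2 were missing from the first 4 of these 5, and CEBPa and CEBPb from the last. MED1 was in at least 1 list at 26 of the 47 sites, where the share over all sites was 23.0%.

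Most sites with recurrent MED1 held it with and without the drug. A site was called constant when all 4 MED1 lists held it, gained when it was in both treated lists and in no untreated one, and lost in the opposite case. In the neighbourhood 11 of 26 MED1 sites were constant, where 7.96% of the 15620 MED1 sites of the series were. There were 2 gained sites, where the series had 4.83%, and 0 lost sites, where it had 1.48%. The remaining 13 sites were in other combinations, and 8 of them were in a single MED1 list. MED1 was listed after rosiglitazone alone at 8 sites in replicate 1 and at 4 in replicate 2, and in untreated cells alone at 1 site in each. The treated lists were longer throughout, with 8069 and 7104 peaks against 5660 and 4656. The same counts over the series were not made, so this imbalance is not a result about the neighbourhood. With the 4 lists cut to 4656 peaks each, 2 sites were gained, 0 lost and 10 constant. When a treated list was left out, the other sufficed for a gained call. Without rosiglitazone replicate 2 the gained sites rose to 7, since 5 sites had MED1 in rosiglitazone replicate 1 alone. Without rosiglitazone replicate 1 they came to 3, since 1 site had MED1 in rosiglitazone replicate 2 alone.

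The 11 constant sites fell into 4 sets. At 10060672 and 10066669 the middles lay 6.0 kb apart. After a gap of 124.3 kb came 10190944, 10196337 and 10199059, spaced by 5.3 and 2.7 kb. A close pair at 10229205 and 10229759 was 30.2 kb further on, with 0.5 kb between the middles. The last set was 10265439, 10267462, 10272671 and 10276903, spaced by 2.0, 5.2 and 4.3 kb. Within each constant site the MED1 peak centres of the 4 lists differed by 17 to 132 bp, a distance that joining by overlap keeps small.

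Scores have no common scale between lists, and lists of different length give ranks that cannot be set against each other. MED1 was therefore ranked among the 1244 sites of the series that all 4 lists held, so that each list ranked the same sites and rank 1 had the highest score. This ranking was added after the data were seen. At 7 of the 11 constant sites of the neighbourhood both rosiglitazone ranks were better than both untreated ranks, and at 0 were both worse. Over the series 19.2% of constant sites had both better and 19.5% both worse. Among sites already ranked 250 or better in both untreated lists, the neighbourhood had 5 and 4 of them ranked better in both treated lists, where the share over the series was 14.1%. All 11 sites ranked better after rosiglitazone in replicate 1 and 9 of 11 in replicate 2, against 49.0% and 51.0% of constant sites in the series. No test was made, because MED1 strength at this locus was known when it was chosen.

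The site at 10272671, from 10272671 to 10272919, had the best mean MED1 percentile of the neighbourhood and is the reference point for distances. Its authors' MED1 scores were 9.39 and 9.57 in untreated replicates 1 and 2 and 18.08 and 19.78 after rosiglitazone. Among constant sites it ranked 21 and 7 before and 3 and 5 after treatment, so the groups did not overlap. CEBPa, CEBPb and ATF2 were listed there, with scores of 4.59, 5.08 and 2.82 within their own lists. The first pair were the best peaks of those factors in the neighbourhood, and p300 also had its best peak there in both conditions.

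At 10190944, from 10190944 to 10191362 and 81.6 kb before the reference site, MED1 ranked 28 and 21 among constant sites before and 2 and 11 after rosiglitazone. Its score of 19.79 in rosiglitazone replicate 1 was the third highest of all 8069 peaks in that list. The neighbouring site at 10196337, 76.3 kb before the reference, moved from ranks of 115 and 73 to 5 and 12. At 10199059 the ranks were 735 and 214 before and 107 and 65 after. In all 3 sites of this set the treated ranks stood clear of the untreated ones, and the set had few transcription factors, namely ATF2 at 10196337, a weak CEBPb peak at 10190944 and none at 10199059.

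In the last set the site at 10265439 ranked 126 and 63 in untreated cells and 45 and 30 after rosiglitazone. At 10276903 the ranks were 208 and 387 before and 41 and 134 after. At 10267462 they overlapped, with 107 and 73 before and 26 and 134 after. The first pair of these sites thus ranked better in both treated lists, while the order at the third depended on the replicate.

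On the low side, 10066669 ranked 567 and 606 before and 247 and 209 after rosiglitazone, with no overlap. The site at 10060672 ranked 396 and 1008 before and 177 and 478 after, with the lists of replicate 2 lower in both conditions. The pair in the middle showed no clear order, with ranks of 1187 and 690 before and 1114 and 626 after at 10229205, and of 616 and 307 before and 575 and 586 after at 10229759. At 10229205 the replicates were further apart than the conditions. Peak names of both replicate 1 lists carry the letter B and those of replicate 2 do not, and the names of rosiglitazone replicate 2 carry a time of 1 h. The part of such differences between lists in these ranks was not tested.

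**Figure D3:**
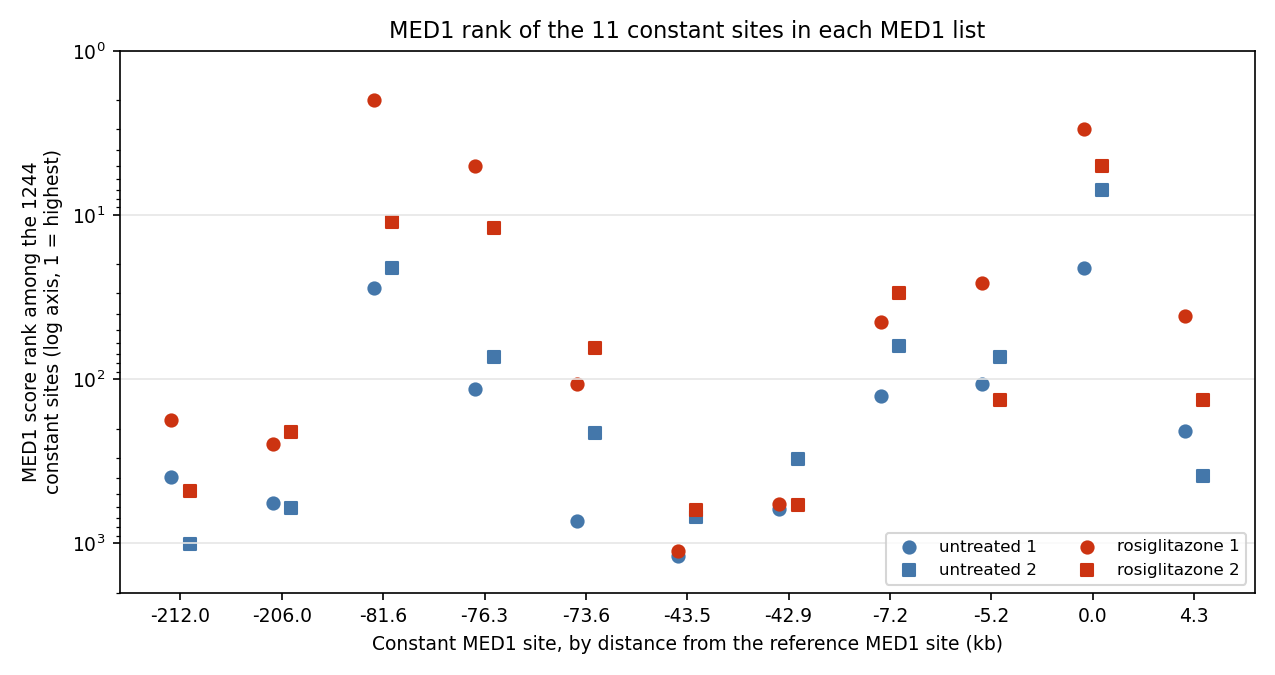
MED1 score rank among the 1244 constant sites of the series (vertical log axis, 1 at the top) at the 11 constant sites of the neighbourhood (horizontal axis, distance from the reference site in kb); circles are replicate 1, squares replicate 2, blue untreated and red rosiglitazone. At 7 sites both red points lie above both blue points, and at the sites -212.0, -43.5, -42.9 and -5.2 kb away the colours overlap.

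The 2 gained sites were weaker. At 9995117, from 9995117 to 9995363, MED1 scored 2.99 and 2.15 in rosiglitazone replicates 1 and 2, at the 80.2 and 48.2 percentiles of those lists, and no other factor was listed. At 10284394, from 10284394 to 10284681, MED1 scored 2.22 and 2.15, at the 66.5 and 48.2 percentiles, and NCOR was listed after rosiglitazone with a score of 1.21. Neither of them held CBP, p300 or a transcription factor. A further site at 10003533 missed the call through a weak peak in untreated replicate 1, at the 29.8 percentile, beside 85.6 and 76.5 after rosiglitazone. NCOR was listed there in both conditions.

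The coactivators were mostly listed in both conditions, and p300 in particular. p300 was shared by both of its lists at 16 of its 18 sites, untreated-only at 1 and rosi-only at 1, where the series had 49.1% shared, 28.9% untreated-only and 22.0% rosi-only. CBP was shared at 11 of its 17 sites, untreated-only at 4 and rosi-only at 2, where the series had 46.8%, 43.9% and 9.33%. At the 11 constant MED1 sites p300 was shared at 10 and CBP at 9, where constant sites of the series had 93.6% and 86.3%. These shares at the constant sites are thus near those of such sites in general. CBP and p300 had 1 list per condition, so a call compares 2 libraries. With the CBP lists at an equal length of 9515 peaks 2 sites were untreated-only and 3 rosi-only, so the order of those counts turned.

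Ranks were also taken among the sites that a cofactor held in both conditions, 7908 for CBP, 9414 for p300 and 18967 for NCOR. p300 at the reference site ranked 149 before and 96 after rosiglitazone. At 10199059 p300 ranked 2733 before and 780 after, and at 10190944 it ranked 2033 and 984, there with peaks that did not overlap between conditions. Of the 10 constant MED1 sites with p300 in both lists, 8 ranked better after rosiglitazone, 10190944 among them, and 2 worse, while 49.4% of all shared p300 sites ranked worse. CBP ranked better at 6 and worse at 3 of its 9 such sites, and 49.5% of all shared CBP sites ranked worse. Of CBP sites of the series ranked 1000 or better in untreated cells, 60.2% ranked worse after treatment. In the neighbourhood 2 of 3 such sites did, and the other, 10265439, went from 924 to 794. For p300 the share was 65.1%, and 0 of 2 such sites in the neighbourhood ranked worse. The 3 constant sites with worse CBP ranks were 10196337 (593 to 1667), the reference site (552 to 1213) and 10276903 (1881 to 2210). All of these ranked better for MED1 and p300. The largest CBP move the other way was at 10199059, from 2919 to 953.

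NCOR was listed at 30 of the 47 sites of the neighbourhood, more than any other factor. Over the series 34430 of the 67815 sites held it, and its lists were the longest, with 25136 and 28491 peaks. In the neighbourhood NCOR was shared at 18 of its 30 sites, untreated-only at 5 and rosi-only at 7, where the series had 55.1%, 17.6% and 27.3%. With the NCOR lists at equal length 5 sites were untreated-only and 4 rosi-only, and in the upper 50% of each list 2 and 1, so the order of those counts turned. All 11 constant MED1 sites held NCOR in untreated cells and 10 held it after rosiglitazone, where 94.1% of constant sites of the series held it in both conditions. NCOR ranked worse after treatment at 4 of those 10, and at 50.2% of all shared NCOR sites. The 3 sites with the best untreated NCOR ranks all ranked worse after treatment. Those were 10196337 with ranks of 317 and then 1918, 10276903 with 602 and 2552, and the reference site with 998 and 3296. Of the sites of the series ranked 1000 or better in untreated cells, 64.1% ranked worse after rosiglitazone, with a median rank after treatment of 577.0. Of the other 7 constant sites with NCOR in both lists, 6 ranked better and 10229205 worse. Names inside the NCOR rosiglitazone list carry a time of 30 min, so MED1 and NCOR may have been mapped at different times after the drug, which was not corrected for.

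**Figure D4:**
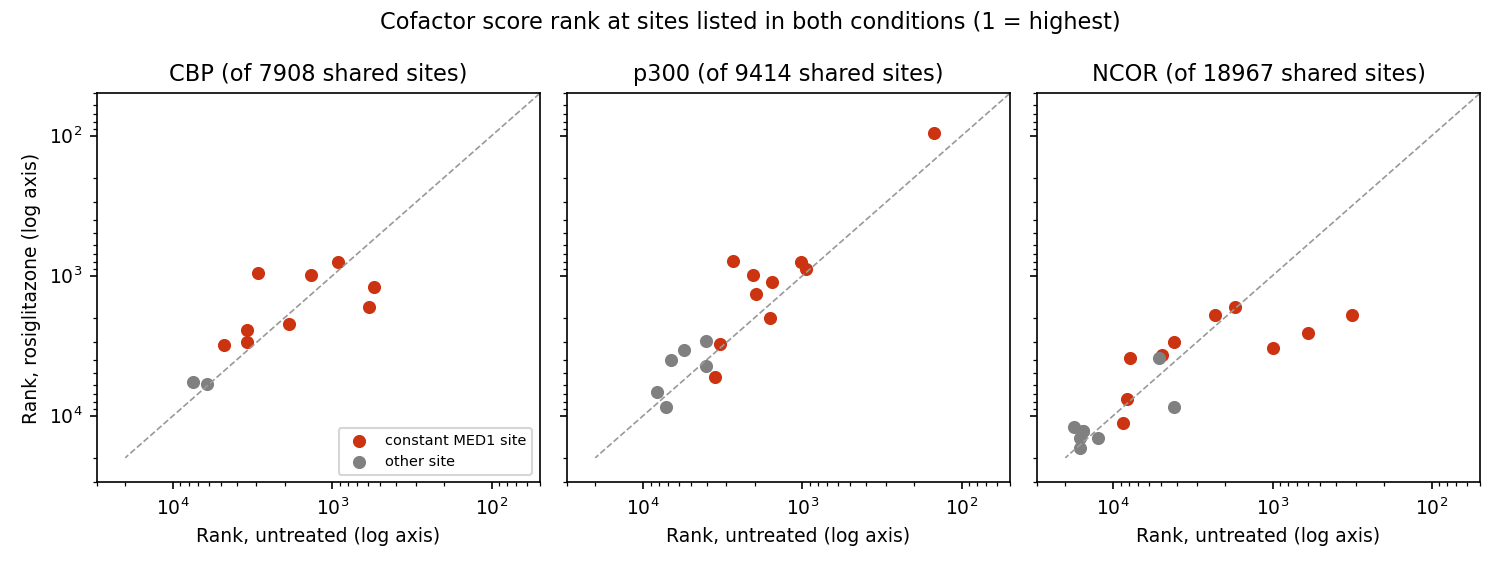
Score rank in untreated cells (horizontal log axis) against rank after rosiglitazone (vertical log axis) at the neighbourhood sites that CBP, p300 or NCOR held in both conditions; 1 is the highest score, both axes are reversed so that high ranks lie up and right, and the dashed line marks equal rank. Red points are constant MED1 sites, 8 of 10 of them above the line for p300, while the 3 points furthest right for NCOR lie below it.

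The site at 10190944 combined high MED1 with cofactors listed in 1 condition. NCOR scored 4.14 there in untreated cells, at the 90.6 percentile of its list, and was not listed after rosiglitazone. CBP scored 2.35 in untreated cells, at the 68.8 percentile, and was not listed after treatment either. Among the 1244 constant sites of the series 0.402% had both CBP and NCOR untreated-only, 5 sites in all. p300 was in both lists, but its untreated peak began at 10191163 and its treated peak at 10190959, so that those peaks did not overlap each other and were joined through the others. When windows had to overlap by 50%, the treated p300 peak stayed with all 4 MED1 peaks. The untreated p300 peak then formed a separate site with CEBPb from 10191141 to 10191362. The treated p300 peak thus overlapped all 4 MED1 peaks by at least 50%. The untreated p300 peak overlapped the MED1 peaks of both untreated lists and of rosiglitazone replicate 2, but by less than 50%. It did not overlap that of rosiglitazone replicate 1. With 1 p300 library per condition, this difference in position was not tested. A lone NCOR peak at 10189000, at the 91.6 percentile in untreated cells, was also not listed after rosiglitazone.

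At the constant sites JUND and FOSL2 were furthest below their shares over the series, and CEBPa, CEBPb and ATF2 were below theirs by less. Of the 11 constant sites, CEBPa was at 6 (54.5%), CEBPb at 6 (54.5%) and ATF2 at 8 (72.7%). Constant sites of the series had 68.9%, 71.6% and 91.3%. JUND was at 3 (27.3%) and FOSL2 at 1 (9.1%), where the series had 71.3% and 45.3%. No site of the neighbourhood held all 5 factors, and 1 constant site, at 10199059, held none, where 3.22% of the series had none. All 5 factors were mapped in untreated cells only, and the difference between the neighbourhood and the series was not tested.

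**Figure D5:**
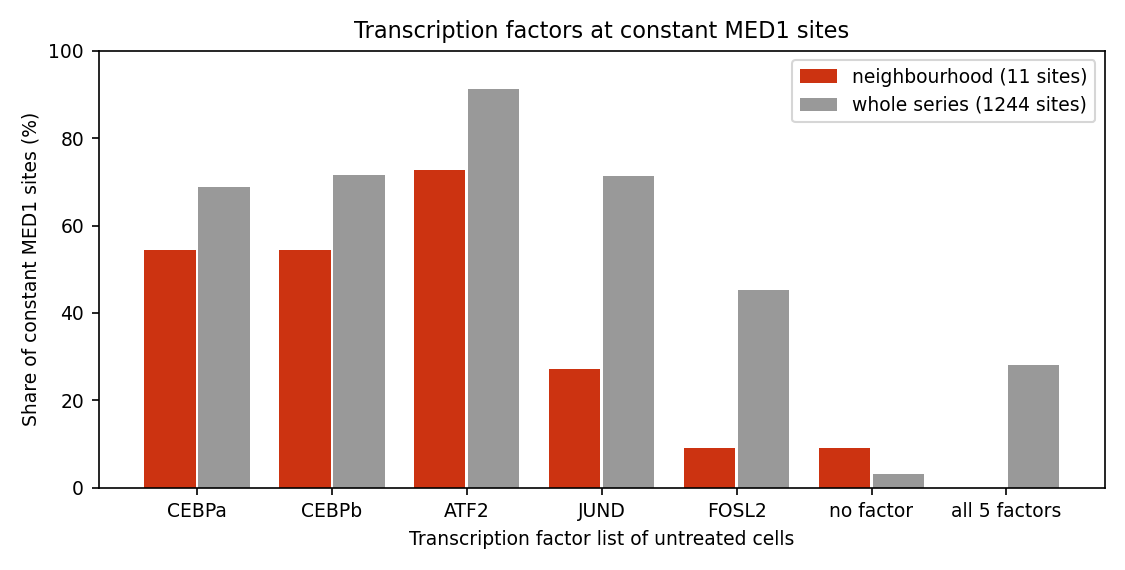
Share of constant MED1 sites, in percent (vertical axis), that were in the list of each transcription factor in untreated cells, in none or in all 5 (horizontal axis); red is the neighbourhood with 11 sites and grey the series with 1244. JUND stands at 3 of 11 sites and FOSL2 at 1 of 11, beside 71.3% and 45.3% in the series.

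CEBPa and CEBPb were together at the constant sites 10066669, 10229759, 10265439, 10267462 and 10272671. CEBPa was alone at 10229205 and CEBPb alone at 10190944, both with weak peaks at the 15.6 and 2.8 percentiles of their lists. At 10229759 CEBPb scored 4.64, at the 95.2 percentile, while MED1 there showed no order between conditions. The best ATF2 peak lay at 10196337, with a score of 8.40 that ranked 148 in its list of 24192 peaks, and no other transcription factor was listed there. NCOR also had its best untreated peak of the neighbourhood at that site, with a score of 8.15.

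JUND and FOSL2 each had 11 peaks in the neighbourhood and none in the upper 5% of their lists. With so few peaks that does not set them apart. The rosiglitazone lists of CBP, with 13 peaks there, and NCOR, with 26, had none in their upper 5% either. The best JUND and FOSL2 peaks lay in the last group. They were at 10401539 for JUND, with a score of 2.82 (74.8 percentile), and at 10400466 for FOSL2, with 3.83 (80.5 percentile). The latter site, 127.8 kb past the reference, held only those factors, and so did the site at 10429247. At 10401539 MED1 was listed in rosiglitazone replicate 1 alone, at the 50.0 percentile. At 10276903, the only constant site with both AP-1 subunits, FOSL2 was at the 4.3 percentile and JUND at the 60.3 percentile.

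One further site was named for the number of lists it was in. The site from 10067739 to 10068334 was in 11 lists, with CEBPa at the 90.9 percentile. MED1 was listed there in both replicate 1 lists, with scores of 2.40 and 5.54, and in neither replicate 2 list. The same replicate split was seen at 9995402 and 10060024, and 0 sites had MED1 in both replicate 2 lists alone. NCOR had a second, separate peak within it after rosiglitazone, at the 50.8 percentile. The remaining 33 sites were in at most 8 lists each. Of all 47 sites 8 held NCOR alone and 9 held transcription factors alone. The same shares over the series were not counted, so these counts cannot be called high or low.

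Peaks were joined into sites by overlap, so distances between peak centres within a site are small by construction. Those at the constant sites are given as a description. The median distance from the mean MED1 centre was 13.5 bp for CBP, 23.4 bp for p300 and 13.2 bp for NCOR in untreated cells. After rosiglitazone it was 8.2 bp for CBP, 24.6 bp for p300 and 24.2 bp for NCOR. It was 26.8 bp for CEBPa at 6 sites, 10.6 bp for CEBPb at 6 sites and 27.0 bp for ATF2 at 8 sites. For JUND it was 4.8 bp at 3 sites, and FOSL2 had 32.8 bp at 1 site. Over the constant sites of the series the medians ran from 23.8 to 36.2 bp across the factors. The largest distance was 183.8 bp, for the untreated p300 peak at 10190944 described above.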

How the data were processed

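The 26 samples include 10 GRO-seq samples and 1 input, which were not analysed here, and 15 ChIP-seq libraries with 1 peak list each. The submitters' processing notes name the tools Bowtie, HOMER and bedtools and the build mm8. Tool versions, the peak threshold and whether input was subtracted are not given in these sources. In the deposited lists the authors gave 200 bp peaks with a peak score whose divisor is not stated, so read depth is unknown and scores served only for ranks. The lists held 4656 to 28491 peaks, and the lowest score in a list was 1.00 to 1.43. Groups came from the sample titles.

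Peaks of all 15 lists whose windows overlapped by at least 1 bp were chained into sites, and a site entered where any of its peaks was centred in the window. Percentiles give the share of the list's peaks below a score, with ties counted by 50%. Tied scores share the best rank. Sites were described one by one where at least 10 lists or a gained, lost or constant MED1 call held, or a peak was in the upper 5% of a list; others were named where a small count was spelled out. The number of MED1 peaks was compared by an exact permutation test. The joining code was tested on simulated sites that lay far apart and whose peaks all overlapped each other. That test did not cover sites joined through intermediate peaks. Alternatives were a 50% overlap, the upper 50% of each list, cutting compared lists to equal length, leaving out each MED1 list, the replicate block and a window narrowed by 100 kb at each end. The members, lists and tests were chosen with earlier results of these data known. Motifs, promoters and protein sequences were not analysed here. Python 3.11.15, numpy 2.4.6, scipy 1.17.1 and matplotlib 3.10.9 were used.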

Additional observations from a re-analysis of the deposited data

How the results depend on the processing

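Of the 47 sites, 31 remained in number with the upper 50% of each list, 53 arose with an overlap of 50%, and 37 lay in the narrowed window. In the upper 50% of each list CBP had 0 rosi-only and 2 untreated-only sites, p300 had 2 and 0, and NCOR had 1 and 2. With an overlap of 50% p300 had 2 rosi-only and 2 untreated-only sites. At equal length the CBP sites in 1 condition were 2 untreated-only and 3 rosi-only, and those of NCOR 5 and 4. Leaving out each MED1 list in turn gave 3 to 7 gained, 0 to 1 lost and 11 to 12 constant sites, and a difference in MED1 peaks of 1.5 to 8.5. Sites with all treated ranks above all untreated ranks then came to 8 to 9 of 11. With a list left out this rule is looser, and it held at 32.5% to 36.7% of constant sites of the series. With all 4 lists it held at 7 of 11 and at 19.2% of the series. With replicate 1 lists only, all 11 ranked better after rosiglitazone, and with replicate 2 lists only, 9 did. Nothing in the labels states that equal replicate numbers mark paired lists. With the replicate number as a block the peak difference stayed at 5.0 (exact permutation p = 0.500, the smallest that 2 pairs can give). Within both pairs 9 of 11 constant sites ranked better, where 32.8% of constant sites of the series did. As a share of the list's peaks the difference turned to -0.026 percentage points (exact permutation p = 1.000). With the MED1 lists at equal length, and in the upper 50% of each list, the difference in the number of MED1 peaks was 5.5. The cause of these shifts was not tested, except that shorter lists hold fewer sites by construction. Read depth is unknown, so absence from a list does not show that a factor was absent.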

Other observations

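MED1 peaks of the neighbourhood were also chained into runs wherever neighbours within 1 list lay at most 10000 bp apart, a choice made after the data were seen. The run that held the site at 10272671 had the most MED1 peaks of the neighbourhood in each list, equalled in rosiglitazone replicate 1 by the run from 10058439 to 10068196. It held 5 peaks over 16.4 kb in untreated replicate 1, 4 over 11.6 kb in untreated replicate 2, and 5 over 19.2 kb in both rosiglitazone lists. By the number of peaks it stood at rank 23 of 4119 runs in the genome, 23 of 3723, 50 of 5567 and 13 of 5690. Those ranks were shared by 31, 48, 53 and 23 runs. Single peaks count as runs here, and 997, 643, 1491 and 972 runs held 2 or more peaks. The run from about 10190944 to 10199302 held 3 peaks in every MED1 list. The median score in that run was 6.01 and 5.78 in the untreated lists and 17.40 and 17.16 after rosiglitazone, on the scale of each list. A run of 3 peaks near 9995117 was found in the rosiglitazone lists alone, spanning 8.6 kb in replicate 1 and 10.2 kb in replicate 2. The sites of these runs differed, since 9995402 was in the replicate 1 run only and 10005080 in the replicate 2 run only. Untreated replicate 1 also had MED1 peaks in that stretch, at 9995569 and 10003614. Their scores were 1.05 and 1.35, and they were too few for a run of 3.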
